A study of Mus musculus with 6 samples.

Results

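A set of 10 long noncoding RNAs (lncRNAs) known from brain was followed in primary mouse neurons after CRISPR activation of the potassium channel gene *Kcna1*. The 10 genes are *Meg3*, *Rian*, *Mirg*, *Malat1*, *Neat1*, *Miat*, *Snhg11*, *Kcnq1ot1*, *Peg13* and *Pantr1*. They were chosen by name, as the rows of the deposited tables that carry these symbols, and the rule used no measured value, although the symbols were picked with earlier results of these data known. All 10 were found among 50508 listed symbols and all 10 were above 0, whereas 19504 symbols in all were above 0 in at least 1 library and entered the test. In 9 of the 10 the mean was higher in the Kcna1-dCas9A libraries, and in 6 every Kcna1-dCas9A library lay above every control library, as in 8.98% of all genes tested. The test across all genes called 1 of the 10 as higher, *Kcnq1ot1*, as it did 0.349% of all genes. That call was lost without the intensity trend of the test and in 5 of the 6 fits that left out 1 library, and without the third control library 4 of the 10 passed, where 14.2% of all genes did in either direction.

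The cells were primary neurons of C57Bl/6J pups transduced with lentivirus. In both groups the virus carried dCas9-VP160, a Cas9 without nuclease activity that is fused to a transcriptional activator and is driven by the Ef1alpha promoter, which is active in most cell types. The groups differed in the guide. Ctrl-dCas9A (3 libraries) received sgLacZ, a guide against a bacterial gene, and Kcna1-dCas9A (3 libraries) received sg19, a guide against the *Kcna1* promoter. The labels name hippocampus as the source, whereas the methods of the study describe cortical cultures. For the RNA that was sequenced, one passage of the methods gives 10 days in vitro and another 14 to 16 days counted from transduction. The methods speak of independent repetitions for the study in general, but the labels and methods do not say whether the 3 libraries of a group came from separate cultures, so a p-value measures only the spread between these libraries, which may be technical. Libraries were made from polyadenylated RNA with a 3' kit that gives about 1 tag per transcript near its end. The values are whole numbers that sum to between 999047 and 999717 per library and were taken as values per 1000000 tags, rounded by the authors. They are not divided by gene length. Levels were compared mainly between libraries, and genes were set against each other in ratios and sums within a library. Values of a gene are given in the order of the replicate numbers in the labels. Read numbers are unknown, and no counting interval or detection floor is given.

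The libraries differed between groups in more than the targeted gene. *Kcna1* itself was at 16, 16 and 16 in the controls and 68, 47 and 65 with Kcna1-dCas9A (log2 fold change 1.83, SE 0.16, limma adjusted p = 0.0345). The number of genes above 0 was 14788 to 15128 in the controls and 15106 to 15417 with Kcna1-dCas9A, with overlap. The share of mitochondrial genes was 2.71% to 2.85% in the controls and 1.87% to 2.32% with Kcna1-dCas9A, without overlap. *Gm42418*, a locus that overlaps ribosomal RNA, held 16.3% to 19.5% and 15.3% to 20.2%, with overlap. The part of these shares in the values of the lncRNAs was not tested, apart from the scaling alternatives, which are given where they changed a call and together with the counts over the 10. In the fit across all genes, 0.349% of the 19504 genes passed an adjusted p of 0.05 as higher in Kcna1-dCas9A (68 genes) and 0.81% as lower (158 genes). Groups that did not overlap were commoner, with 8.98% of genes higher and 13.3% lower in every Kcna1-dCas9A library. An unadjusted p under 0.05 was reached by 9.59% of genes as higher (1870) and by 13.6% as lower (2659), which is the background for the unadjusted counts given below. Genes near 0 lower these unadjusted shares. Among the 13604 genes with a mean of at least 1, fitted alone, 4421 had an unadjusted p under 0.05, against 4529 of all 19504. The lowest group mean of the 10 lncRNAs was 5.67 (*Neat1*, controls). Shares without overlap were not computed for genes of similar level.

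LncRNAs are transcripts that are spliced and polyadenylated much like mRNAs, in most cases, but are not translated into a known protein, and many stay in the nucleus. Several of those described here lie in imprinted regions, where a gene is transcribed from the chromosome of only 1 parent. *Meg3*, *Rian* and *Mirg* are transcribed in the same direction from the maternal copy of the *Dlk1*-*Dio3* region, and their introns and exons give rise to many microRNAs and small nucleolar RNAs. *Kcnq1ot1* is transcribed from the paternal copy against the direction of *Kcnq1* and silences its neighbours on that chromosome. *Malat1* and *Neat1* are neighbours that encode nuclear RNAs, *Malat1* in nuclear speckles and *Neat1* as the scaffold of paraspeckles, and *Miat* (Gomafu) forms nuclear domains of its own in neurons. *Snhg11* hosts a small nucleolar RNA, *Peg13* lies within an intron of *Trappc9*, and *Pantr1* neighbours the transcription factor gene *Pou3f3* (Brn1).

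In the RefSeq annotation of GRCm38.p6, all 10 symbols were found. *Meg3* spans chr12:109540996-109571729, *Rian* chr12:109603945-109661716 and *Mirg* chr12:109734981-109749458, all on the plus strand. The gap from *Meg3* to *Rian* is 32215 bp and that from *Rian* to *Mirg* is 73264 bp. *Malat1* (chr19:5795690-5802672, minus strand) and *Neat1* (chr19:5824708-5845480) lie 22035 bp apart. *Kcnq1ot1* (chr7:143213111-143296547, minus strand) lies wholly within the span of *Kcnq1*, and *Peg13* (chr15:72805602-72810324) wholly within that of *Trappc9*. *Miat* spans chr5:112213228-112228948 on the minus strand and *Snhg11* chr2:158375713-158386474 on the plus strand. *Pantr1* (chr1:42648200-42694825) ends 942 bp from *Pou3f3*. Whether the counting used the strand of the reads is not given in the sources used here, so reads of overlapping genes may not have been told apart.

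The *Meg3*, *Rian* and *Mirg* loci are best known for the microRNAs they carry, and these mature sequences show what the 3 host transcripts contain. RefSeq places 2 microRNA hairpins with 3 mature microRNAs in *Meg3*, 3 hairpins with 6 in *Rian* and 10 hairpins with 19 in *Mirg*. One microRNA of *Meg3*, one of *Rian* and one of *Mirg* follow, and then the pair that alone shares a seed among those hosted by the 3 genes, with the seed (bases 2 to 8) in capitals.
miR-770-5p (*Meg3*, chr12:109563710-109563731, plus strand): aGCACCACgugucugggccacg
miR-370-3p (*Rian*, chr12:109618305-109618326, plus strand): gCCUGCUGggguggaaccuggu
miR-410-3p (*Mirg*, chr12:109743764-109743784, plus strand): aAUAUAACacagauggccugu
miR-453 (*Mirg*, chr12:109735669-109735692, plus strand): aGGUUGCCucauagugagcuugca
miR-496a-5p (*Mirg*, chr12:109739132-109739152, plus strand): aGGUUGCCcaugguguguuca
The seed GGUUGCC of miR-453 and miR-496a-5p is the same, as is the base before it, and the stretches after the seed differ. Mature microRNAs carry no poly(A) tail, so the libraries do not measure them. From the start of *Meg3* to the end of *Mirg*, over 208463 bp, RefSeq lists 57 hairpins, all 57 of which have a row in the tables. Of these rows 4 were above 0 in any library, and the highest value was 2. The values of *Meg3*, *Rian* and *Mirg* below are those listed for the host genes, and which RNAs their reads came from was not tested.

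*Kcnq1ot1* and *Meg3* had the highest log2 fold changes of the 10, and their promoter windows are printed for that reason. Each window runs from 250 bases before the annotated start to 50 after it, in the direction of the gene (RefSeq, GRCm38.p6). Capitals mark CCAAT, TGACGTCA (the cyclic AMP response element) and TATAAA, each searched on both strands.
*Kcnq1ot1* (chr7:143296498-143296797, minus strand): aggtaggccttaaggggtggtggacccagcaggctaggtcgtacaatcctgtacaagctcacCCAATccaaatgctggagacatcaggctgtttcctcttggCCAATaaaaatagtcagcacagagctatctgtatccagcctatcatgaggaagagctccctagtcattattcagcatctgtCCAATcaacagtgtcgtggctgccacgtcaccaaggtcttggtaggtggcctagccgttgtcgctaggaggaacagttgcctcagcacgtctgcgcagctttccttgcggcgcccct
*Meg3* (chr12:109540746-109541045, plus strand): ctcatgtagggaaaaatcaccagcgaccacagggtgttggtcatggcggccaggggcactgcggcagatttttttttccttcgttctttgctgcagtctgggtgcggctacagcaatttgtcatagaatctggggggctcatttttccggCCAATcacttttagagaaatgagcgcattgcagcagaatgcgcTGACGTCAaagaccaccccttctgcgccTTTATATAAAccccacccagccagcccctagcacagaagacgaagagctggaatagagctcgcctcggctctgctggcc
The *Kcnq1ot1* window holds CCAAT 3 times and neither of the other motifs. The *Meg3* window holds CCAAT 1 time, TGACGTCA 1 time and TATAAA 2 times, once on each strand in the overlapping run in capitals nearest to the start. Of 32851 windows of the same length in the RefSeq table, 37.4% held CCAAT, 1.79% TGACGTCA and 13.6% TATAAA. CpG dinucleotides numbered 9 in the *Kcnq1ot1* window and 13 in the first *Meg3* window, against a median of 7 over all windows. RefSeq also gives *Meg3* a window at a later start (chr12:109545148-109545447), which holds none of the 3 motifs and 1 CpG. Windows were at hand for 7 of the 10 genes. Sites beside an NGG motif in the windows of these 7 genes differed from sg19 at 10 to 12 of its bases at the nearest, and 42.6% to 97.2% of all windows held a site as near, while 0.003% of all windows held a site with 4 or fewer mismatches. A match in letters is a description of the sequence and not of binding.

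**Figure D1:**
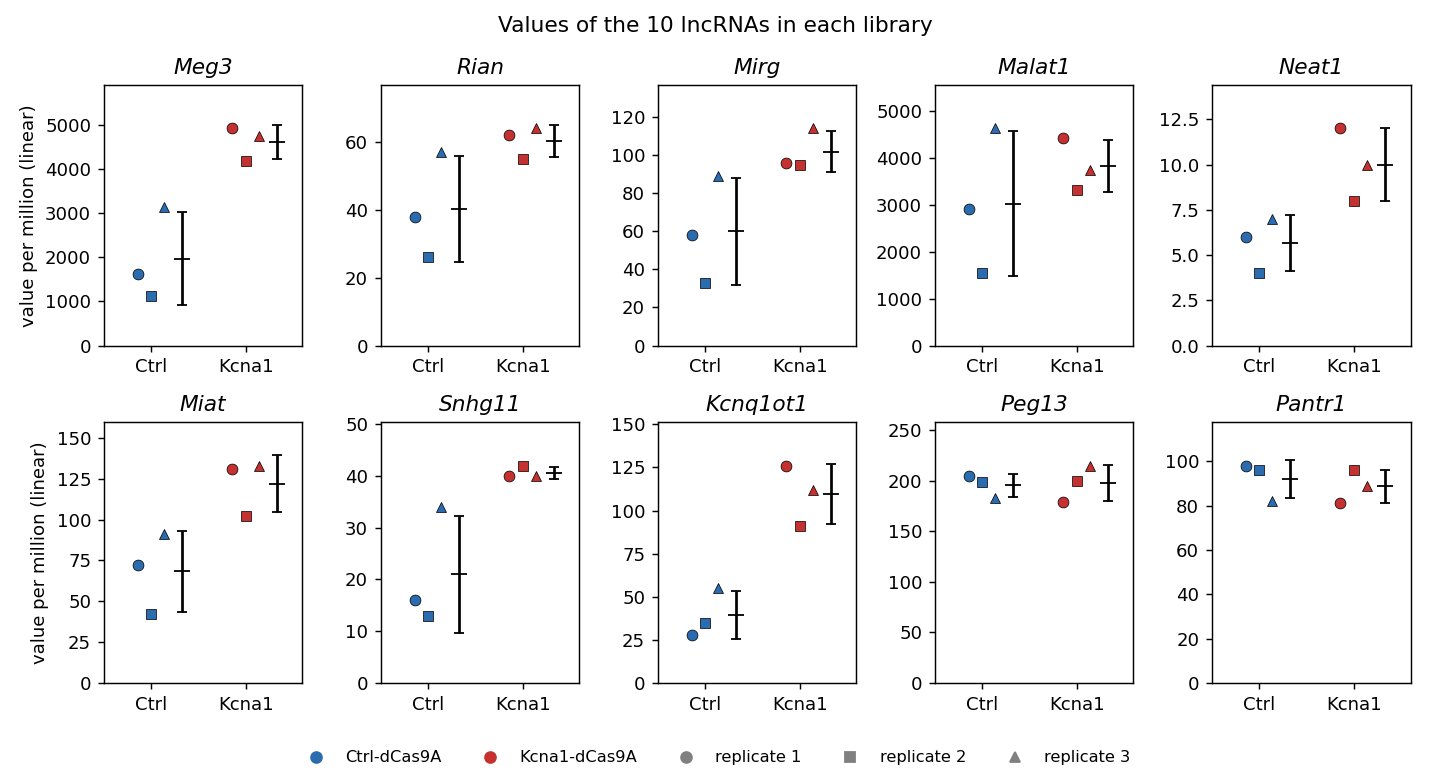
Values per 1000000 (linear axes starting at 0) of the 10 lncRNAs in the 3 Ctrl-dCas9A libraries (blue) and the 3 Kcna1-dCas9A libraries (red), with the replicate number of the labels as the shape of the point. Horizontal ticks mark group means and bars the SD. For Kcnq1ot1, Meg3, Mirg, Miat, Snhg11 and Neat1 every red point lies above every blue one, whereas the red and blue points of Rian, Malat1, Peg13 and Pantr1 overlap.

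The 3 transcripts of the *Dlk1*-*Dio3* region had higher means in Kcna1-dCas9A, but none of them passed the test as deposited and the groups of *Rian* overlapped. *Meg3*, an RNA that binds chromatin and is known as a growth suppressor, was at 1612, 1131 and 3150 in the controls and 4922, 4187 and 4748 with Kcna1-dCas9A. Every Kcna1-dCas9A library was above every Ctrl-dCas9A library, and the third control library stood between the other controls and the Kcna1-dCas9A group. The means were 1964 ± 1055 and 4619 ± 384 (SD, n = 3), a ratio of 2.35. In bulk RNA a change in the number of cells of a type and one in the RNA per cell cannot be told apart. The log2 fold change of *Meg3* on the log2(value + 1) scale was 1.36 (SE 0.34, 95% interval 0.56 to 2.17), with a limma adjusted p of 0.0692 over all genes tested. Of the 19504 genes, 1.16% had a higher log2 fold change than *Meg3*. Its call depended on the scaling, the filter and the third control library. *Meg3* passed with median-of-ratios factors (log2 fold change 1.45, limma adjusted p = 0.0145), with *Gm42418* left out (1.35, 0.0122), without genes of a mean below 1 (1.36, 0.035) and without the third control library (1.77, 0.0186). Over all alternatives its limma adjusted p ranged from 0.0122 to 0.258.

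*Mirg*, the transcript that carries the largest number of the microRNAs above, was at 58, 33 and 89 in the controls and 96, 95 and 114 with Kcna1-dCas9A. The groups did not overlap, but the third control library came close to the lowest Kcna1-dCas9A libraries. Its log2 fold change was 0.86 (SE 0.32, 95% interval 0.09 to 1.62, limma adjusted p = 0.169), and it was 0.49 without the second control library. *Rian*, which hosts small nucleolar RNAs, was at 38, 26 and 57 in the controls and 62, 55 and 64 with Kcna1-dCas9A. The groups overlapped, since the third control library was above the second Kcna1-dCas9A library. The log2 fold change of *Rian* was 0.64 (SE 0.26, 95% interval 0.02 to 1.26, limma adjusted p = 0.202), and without the third control library it was 0.92 (limma adjusted p = 0.0435, and 0.0435 to 0.434 over all alternatives). Without the second control library the log2 fold change of *Rian* was 0.36. In all 3 transcripts the second control library was the lowest and the third the highest of the controls, with a ratio of highest to lowest of 2.79 for *Meg3*, 2.7 for *Mirg* and 2.19 for *Rian*. Within Kcna1-dCas9A the same ratio was 1.18, 1.2 and 1.16.

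A factor common to all genes of a library cancels in a plain ratio of 2 values of that library. In all, 8 such ratios were computed, with pairs chosen after the values of the genes had been seen. The ratios printed are plain ratios. The log2 differences and their tests are on the log2(value + 1) scale, on which such a factor cancels only in part, and the differences of the plain log2 ratios are given beside them where they differ. The ratio of *Meg3* to *Rian* was 42.4, 43.5 and 55.3 in Ctrl-dCas9A and 79.4, 76.1 and 74.2 in Kcna1-dCas9A. The ratio of *Meg3* to *Mirg* was 27.8, 34.3 and 35.4 against 51.3, 44.1 and 41.6. For both pairs the groups did not overlap, so that *Meg3* stood higher relative to the other transcripts of its region in each Kcna1-dCas9A library than in any control library. On the log2(value + 1) scale the mean log2 ratio was higher by 0.73 and by 0.51 (0.71 and 0.49 for the plain ratios), each with an exact permutation p of 0.1 (two-sided), the smallest that 3 against 3 can give, and 0.2 after adjustment over the 8 ratios. The adjusted p of the ratios ranged from 0.2 to 0.7 (exact permutation tests). The ratio of *Mirg* to *Rian*, at 1.53, 1.27 and 1.56 against 1.55, 1.73 and 1.78, overlapped between groups (log2 difference 0.22, and 0.13 without the second control library, exact permutation p = 0.2). The ratio of *Meg3* to *Malat1*, a gene with values in the same range, was 0.555, 0.732 and 0.68 in Ctrl-dCas9A and 1.11, 1.26 and 1.26 in Kcna1-dCas9A, again without overlap (log2 difference 0.89, exact permutation p = 0.1).

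**Figure D2:**
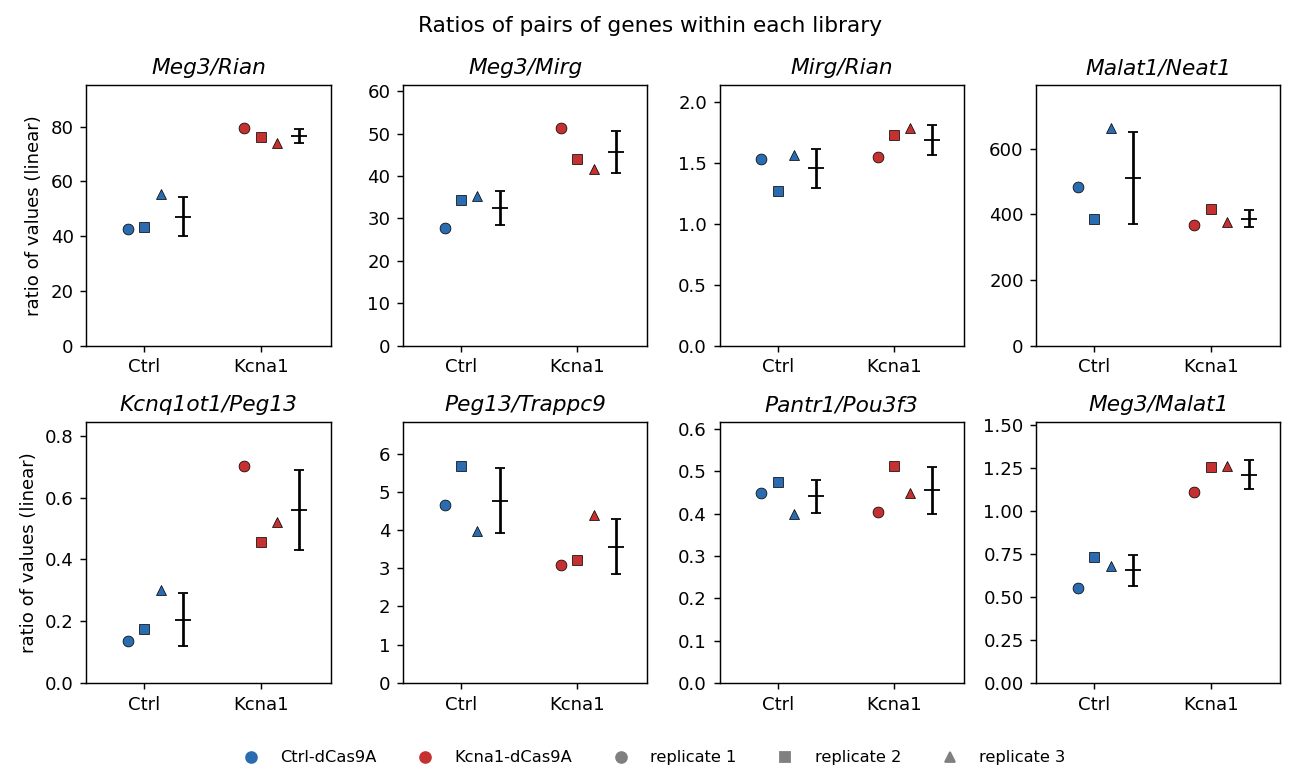
Ratio of the values of 2 genes within each library (linear axes starting at 0) for 8 pairs, in Ctrl-dCas9A (blue) and Kcna1-dCas9A (red), with group means (ticks) and SD (bars), n = 3 libraries a group. The ratios Meg3/Rian, Meg3/Mirg, Meg3/Malat1 and Kcnq1ot1/Peg13 do not overlap between groups, whereas Mirg/Rian, Malat1/Neat1, Peg13/Trappc9 and Pantr1/Pou3f3 do.

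*Kcnq1ot1* had the highest log2 fold change of the 10 lncRNAs. It was at 28, 35 and 55 in the controls and 126, 91 and 112 with Kcna1-dCas9A. The groups were well apart, and the third control library was again the highest of the controls. *Kcnq1ot1* was 2.79 times as high by the ratio of means (39.3 ± 14 against 110 ± 17.6, SD, n = 3). The log2 fold change was 1.5 (SE 0.25, 95% interval 0.91 to 2.09), and its limma adjusted p of 0.0496 was just inside the threshold. Of the genes tested, 0.82% had a higher log2 fold change. The call of *Kcnq1ot1* was lost without the intensity trend (limma adjusted p = 0.0751) and when any 1 library other than the third control was left out (limma adjusted p from 0.117 to 0.166, log2 fold change from 1.29 to 1.63). In those 5 fits with a library left out, limma called 0 genes of all those tested, with between 3332 and 3853 at an unadjusted p under 0.05, so that *Kcna1* and every other call given here was lost in them too. Over all alternatives the limma adjusted p of *Kcnq1ot1* ranged from 0.00389 to 0.166.

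The neighbours of *Kcnq1ot1* that were measured did not pass the test. *Kcnq1*, the potassium channel gene within which it lies, was listed at 0 in all 6 libraries. *Cd81*, a tetraspanin gene, was at 135, 104 and 80 in the controls and 61, 68 and 71 with Kcna1-dCas9A. Every Kcna1-dCas9A library of *Cd81* was below every control library, and its log2 fold change was -0.64 (SE 0.19, limma adjusted p = 0.102). The other neighbours above 0, named after their values were seen, differed from *Cd81*. *Cdkn1c*, a cell cycle inhibitor gene, was at 27, 29 and 29 in the controls and 32, 30 and 31 with Kcna1-dCas9A, higher in every library (log2 fold change 0.13, limma adjusted p = 0.513). *Nap1l4*, a histone chaperone gene, was at 267, 300 and 357 in the controls and 323, 323 and 318 with Kcna1-dCas9A, with overlap (log2 fold change 0.07, limma adjusted p = 0.701).

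*Peg13*, the other imprinted lncRNA that lies within a protein-coding gene, had nearly the same values in both groups. It was at 205, 199 and 183 in the controls and 179, 200 and 215 with Kcna1-dCas9A. The ranges overlapped almost wholly, with means of 195.7 ± 11.4 and 198 ± 18.1 (SD, n = 3). The log2 fold change of *Peg13* was 0.01 (SE 0.10, 95% interval -0.22 to 0.25, limma adjusted p = 0.963). *Trappc9*, which encodes a subunit of a trafficking complex and contains *Peg13*, was higher in every Kcna1-dCas9A library, at 44, 35 and 46 in the controls and 58, 62 and 49 with Kcna1-dCas9A (log2 fold change 0.43, SE 0.15, limma adjusted p = 0.142). The ratio of *Peg13* to *Trappc9* was 4.66, 5.69 and 3.98 in Ctrl-dCas9A and 3.09, 3.23 and 4.39 in Kcna1-dCas9A, with overlap (log2 difference -0.41, -0.42 for the plain ratios, exact permutation p = 0.2). The ratio of *Kcnq1ot1* to *Peg13* was 0.137, 0.176 and 0.301 in Ctrl-dCas9A and 0.704, 0.455 and 0.521 in Kcna1-dCas9A. It did not overlap between groups, and its log2 difference was 1.48 (1.51 for the plain ratios, exact permutation p = 0.1).

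The nuclear-body lncRNAs differed in how far their groups stood apart. *Malat1*, whose mature 3' end is made without a poly(A) tail, was at 2904, 1545 and 4634 in the controls and 4418, 3329 and 3754 with Kcna1-dCas9A. Since the libraries were made from polyadenylated RNA, these values may not follow the level of the mature form. The highest library of all was a control, and the lowest was a control as well. Its log2 fold change was 0.47 (SE 0.37, 95% interval -0.40 to 1.33, limma adjusted p = 0.513). *Malat1* had the widest control group of the 10, with a ratio of highest to lowest of 3.00 against 1.33 in Kcna1-dCas9A. The log2 fold change came to 0.05 without the second control library and to 0.85 without the third.

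*Neat1*, a gene with 2 RefSeq transcripts, was at 6, 4 and 7 in the controls and 12, 8 and 10 with Kcna1-dCas9A. Which of the 2 transcripts these values come from was not tested. The groups did not overlap, but these are low values rounded to whole numbers, and a single unit separates the highest control from the lowest Kcna1-dCas9A library. Its log2 fold change was 0.73 (SE 0.26, 95% interval 0.13 to 1.34, limma adjusted p = 0.141). *Miat*, which binds splicing factors, was at 72, 42 and 91 in the controls and 131, 102 and 133 with Kcna1-dCas9A. Again every Kcna1-dCas9A library was above the controls, with a log2 fold change of 0.89 (SE 0.27, 95% interval 0.24 to 1.53, limma adjusted p = 0.111). *Miat* passed with median-of-ratios factors (limma adjusted p = 0.0275) and with *Gm42418* left out (limma adjusted p = 0.0307), with a range of 0.0275 to 0.342 over all alternatives. Without the second control library its log2 fold change was 0.58. The ratio of *Malat1* to *Neat1* was 484, 386 and 662 in Ctrl-dCas9A and 368, 416 and 375 in Kcna1-dCas9A, with overlap (log2 difference -0.26, -0.37 for the plain ratios, exact permutation p = 0.4). The log2 difference was -0.49 without the second control library and -0.033 without the third.

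*Snhg11*, a small nucleolar RNA host gene of neurons, was at 16, 13 and 34 in the controls and 40, 42 and 40 with Kcna1-dCas9A. The Kcna1-dCas9A libraries were nearly equal, whereas the third control library was far above the other controls, with a ratio of highest to lowest control of 2.62. The log2 fold change of *Snhg11* was 1.04 (SE 0.32, 95% interval 0.28 to 1.80, limma adjusted p = 0.111). It passed with median-of-ratios factors (limma adjusted p = 0.0326), with *Gm42418* left out (limma adjusted p = 0.0358) and without the third control library (log2 fold change 1.43, limma adjusted p = 0.0174), with a range of 0.0174 to 0.347 over all alternatives. *Pantr1* was at 98, 96 and 82 in the controls and 81, 96 and 89 with Kcna1-dCas9A. Its groups overlapped, and the log2 fold change was -0.05 (SE 0.12, 95% interval -0.32 to 0.22, limma adjusted p = 0.798). *Pou3f3*, a transcription factor gene of upper-layer neurons beside *Pantr1*, was at 218, 202 and 206 in the controls and 201, 187 and 198 with Kcna1-dCas9A (log2 fold change -0.09, limma adjusted p = 0.513), with every Kcna1-dCas9A library below the controls. The ratio of *Pantr1* to *Pou3f3* was 0.45, 0.475 and 0.398 in the controls and 0.403, 0.513 and 0.449 with Kcna1-dCas9A (log2 difference 0.04, exact permutation p = 0.7).

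**Figure D3:**
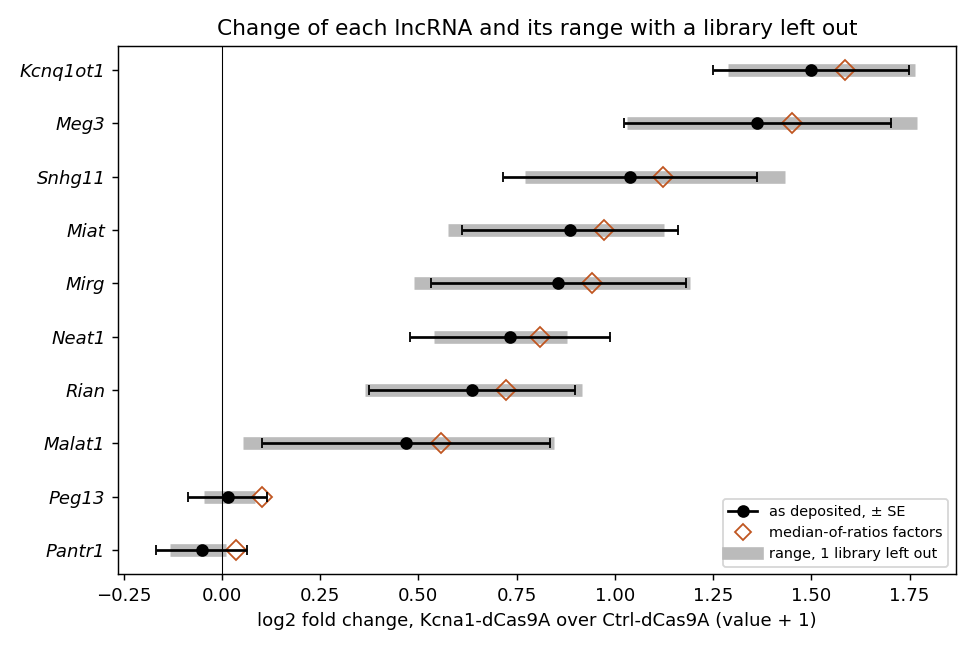
Log2 fold change (Kcna1-dCas9A over Ctrl-dCas9A, log2(value + 1) scale) of each lncRNA as deposited with its SE (black), with median-of-ratios factors (open diamonds) and the range over the 6 fits that each leave out 1 library (grey bars). From Malat1 upwards the grey bars stay above 0, from 0.05 to 0.85 in Malat1 and from 1.29 to 1.76 in Kcnq1ot1, whereas those of Peg13 and Pantr1 cross 0.

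Counted together, 9 of the 10 lncRNAs had a higher mean in Kcna1-dCas9A, 6 did not overlap between groups and were higher, where 8.98% of all genes were, and 0 were lower without overlap. The test called 1 of the 10 as higher (0.349% of all genes) and 0 as lower, with 7 higher and 0 lower at an unadjusted p under 0.05 in limma, against 9.59% and 13.6% of all genes. These shares are over all genes tested, among them many near 0, whereas none of the 10 lncRNAs had a mean below 1. The calls depended on which libraries entered, with 0 of the 10 and 0 genes called in 5 of the 6 fits that left out 1 library, and 4 of the 10 and 14.2% of all genes without the third control. With median-of-ratios factors, 4 were higher (*Meg3*, *Miat*, *Snhg11* and *Kcnq1ot1*), where 4.94% of all genes were. On that scaling the limma adjusted p was 0.00578 for *Kcnq1ot1*, 0.0526 for *Mirg*, 0.0713 for *Rian*, 0.086 for *Neat1*, 0.294 for *Malat1*, 0.575 for *Peg13* and 0.89 for *Pantr1*. The log2 fold changes of *Pantr1* with these factors (0.036) and of *Peg13* with *Gm42418* left out (-0.0028) had the opposite sign to those as deposited. The direction of calls over all genes depended on the scaling, with 68 higher and 158 lower as deposited and 963 higher and 758 lower with these factors. The median log2 fold change was 0.79 over the 10 lncRNAs and -0.02 over all genes tested, and 0.88 and 0.02 with median-of-ratios factors. The second control library was the lowest control for 7 of the 10, and the third was the highest control for 8, the exceptions being *Peg13* and *Pantr1*. *Malat1* and *Meg3* make up most of the sum over the 10, which was 5037, 3124 and 8382 in Ctrl-dCas9A and 10067, 8205 and 9279 in Kcna1-dCas9A. These sums overlapped between groups.

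**Figure D4:**
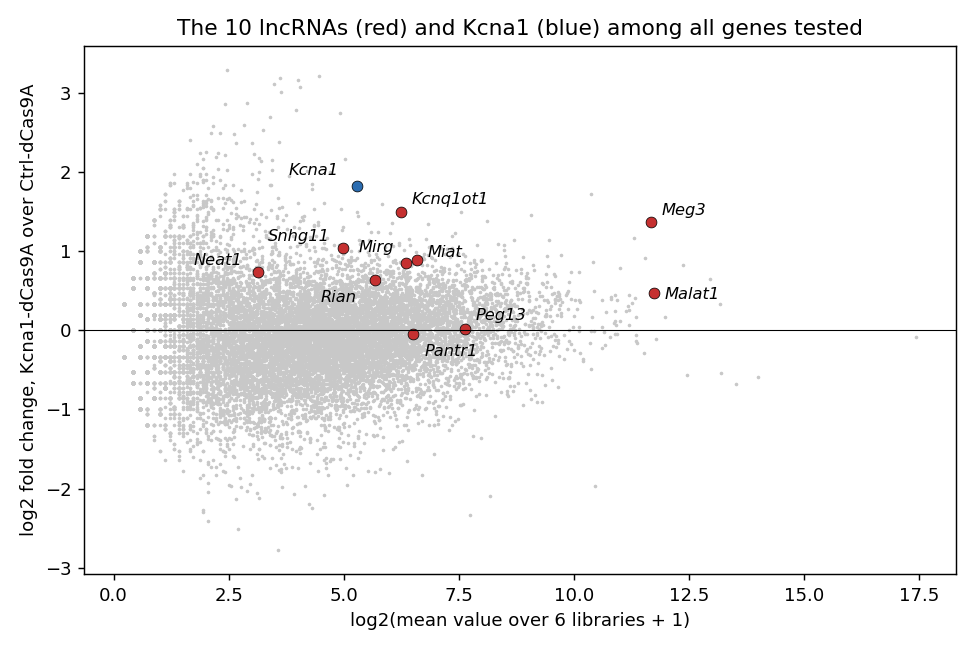
Log2 fold change of every gene tested against its mean over the 6 libraries on a log2(value + 1) scale (grey), with the 10 lncRNAs in red and Kcna1 in blue. The grey cloud has its median at -0.02, Kcnq1ot1 (1.5) and Meg3 (1.36) lie in its upper part, with 0.82% and 1.16% of genes higher, and Peg13 (0.01) and Pantr1 (-0.05) lie in its middle.

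Lists of related genes were read from the same fit. Of 18 listed genes beside the 10 lncRNAs that are in the tables, 4 were at 0 in all libraries. Of the 14 tested genes, limma called 0, with 2 higher and 1 lower at an unadjusted p under 0.05, and their median log2 fold change was -0.06. These include *Dlk1*, the paternally expressed ligand gene of the *Meg3* region, which was at 2, 2 and 1 in the controls and 1, 1 and 0 with Kcna1-dCas9A. *Begain*, a synaptic protein gene of the same region, was at 10, 7 and 9 in the controls and 12, 12 and 21 with Kcna1-dCas9A (log2 fold change 0.69, limma adjusted p = 0.167). Of 20 genes for proteins of paraspeckles and nuclear speckles, 1 fell, 0 rose and 19 did not pass, with a median of -0.20. At an unadjusted p under 0.05, 3 of the 20 were higher and 9 lower, against 9.59% and 13.6% of all genes. With median-of-ratios factors 1 of the 20 was higher and 2 were lower. The gene that fell was *Srsf1*, a splicing factor, at 215, 203 and 169 in Ctrl-dCas9A and 113, 104 and 82 in Kcna1-dCas9A (log2 fold change -0.97, SE 0.15, limma adjusted p = 0.0496). Its groups were well apart.

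Other lncRNAs were as a list near the median of all genes. Of 30 tested, 0 rose, 1 fell and 29 did not pass, with a median log2 fold change of 0.08. Some of the 30 were near 0 in all libraries, so their median is not on a par with that of the 10. At an unadjusted p under 0.05, 2 of the 30 were higher and 4 lower. The 2 higher were *Mir124a-1hg*, at 63, 42 and 89 in the controls and 124, 117 and 129 with Kcna1-dCas9A, and *Dlx1as*. The latter was at 4, 5 and 6 against 9, 9 and 12. With median-of-ratios factors 2 of the 30 were higher and 2 lower. The one that fell was *Snhg6*, a small nucleolar RNA host gene like *Snhg11*, at 20, 16 and 15 in Ctrl-dCas9A and 6, 6 and 4 in Kcna1-dCas9A (log2 fold change -1.51, SE 0.22, limma adjusted p = 0.0486). Of 20 other imprinted genes, limma called 0, with 4 higher and 5 lower at an unadjusted p under 0.05, and the median was -0.35. With median-of-ratios factors 1 of these was higher and 2 were lower. The smallest p-values among these were those of *Igf2r*, a receptor gene (log2 fold change -0.73, limma adjusted p = 0.0556), *Gnas*, which encodes a G protein subunit (-0.80, 0.056), and *Usp29*, a deubiquitinase gene (0.40, 0.0641). The groups of all 3 did not overlap, *Igf2r* and *Gnas* being lower and *Usp29* higher in every Kcna1-dCas9A library.

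Markers of other cell types also differed between the groups, and their part in the results for the lncRNAs was not tested. All 8 neuron markers were above 0 in every library, their summed level was 5784 to 6692 in Ctrl-dCas9A and 6899 to 8229 in Kcna1-dCas9A, and 0 of 8 passed in limma (2 higher and 2 lower at an unadjusted p under 0.05). The higher sum was that of *Tubb3*, singled out after its values were seen, at 1862, 1752 and 2605 in the controls and 3855, 3221 and 4591 with Kcna1-dCas9A. Without *Tubb3* the other 7 summed to 3922, 4049 and 4087 in the controls and to 3874, 3678 and 3638 with Kcna1-dCas9A, lower in every library. Of 10 astrocyte markers 3 fell (*Aqp4*, *Sox9* and *Aldoc*) and 0 rose, with 0 higher and 6 lower at an unadjusted p under 0.05, and their sum was 961 to 1069 in Ctrl-dCas9A and 702 to 718 in Kcna1-dCas9A. Of 8 microglia markers 1 rose (*C1qa*, at 9, 6 and 6 against 23, 22 and 24) and 0 fell, with 5 higher and 0 lower at an unadjusted p under 0.05 and a sum of 23 to 28 against 58 to 78. *C1qb*, *Trem2* and *Csf1r* were each at 0 in 1 control library. Of 7 oligodendrocyte lineage markers tested 1 fell (*Olig2*) and 0 rose, with a sum of 66 to 98 against 40 to 44 and with 1 higher and 5 lower at an unadjusted p under 0.05. The higher one was *Mbp*, a myelin gene singled out after its values were seen, at 3, 3 and 2 in the controls and 7, 4 and 7 with Kcna1-dCas9A (log2 fold change 0.91, limma adjusted p = 0.113), and *Mag* was at 0 in all 6 libraries. Of 8 markers of dividing cells limma called 0, but 7 were lower at an unadjusted p under 0.05, and their sum was 121 to 126 against 71 to 75. For the source of the cultures, 6 hippocampal markers summed to 1500 to 1647 in Ctrl-dCas9A and 1383 to 1641 in Kcna1-dCas9A, and 6 cortical markers to 167 to 173 and 170 to 178. *Zbtb20*, also singled out after its values were seen, held most of the hippocampal sum, and the other 5 summed to 185, 206 and 142 in the controls and 125, 133 and 104 with Kcna1-dCas9A. None of these 12 passed in limma, with 1 higher and 2 lower at an unadjusted p under 0.05, and markers of both regions were present in both groups. With median-of-ratios factors, where 4.94% of all genes were higher and 3.89% lower, limma called 5 microglia markers and 2 neuron markers as higher. It called 5 astrocyte markers, 2 oligodendrocyte lineage markers, 2 markers of dividing cells and 1 neuron marker as lower, and 0 of the hippocampal and cortical markers.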

How the data were processed

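Libraries were prepared with the QuantSeq 3' FWD kit from polyadenylated RNA of primary mouse neurons. Each of the 6 libraries has a table without a header that holds a gene symbol and a whole number, 50508 symbols in all. The authors deposited these values as a score per gene. They were taken to be values per 1000000 tags that the authors rounded, since each library sums to nearly that, and no source states this. The methods of the study name Bowtie2 and NCBI37/mm9, whereas the submitters' processing notes name STAR 2.7, featureCounts, DESeq2 and mm10. Which of these made the tables, and whether reads were counted by strand, is not given in the sources used here.

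Samples were grouped by the treatment in the labels. A count model was not used, because the values are not counts. Values were tested as log2(value + 1) with limma 3.58.1 in R 4.3.3 (lmFit, then eBayes with an intensity trend), with the group as the only factor. The 19504 genes with a value above 0 in any library entered the fit, and p-values were adjusted over all of them by the Benjamini-Hochberg method, with 0.05 as the threshold. Fold changes on this scale understate the change of low genes. Single ratios were compared as log2(value + 1) differences by exact two-sided permutation tests. The members and gene lists were chosen with earlier results of these data known. Genes named are the 10 lncRNAs, *Kcna1*, *Gm42418*, list members past the threshold or, where none passed, the 3 with the smallest p, and *Dlk1*, *Kcnq1*, *Trappc9* and *Pou3f3*. Of the neuron, dividing-cell, hippocampal and cortical markers mainly counts and sums are given. Markers at 0, *Tubb3*, *Zbtb20*, *Mbp*, *Cdkn1c*, *Nap1l4*, *Mir124a-1hg* and *Dlx1as* were named after their values were seen. The scripts were first tested on simulated data, with noise drawn for each gene on its own. In these data 200 genes with a mean of at least 10 were given a log2 change of 1.5. Of these, 144 were recovered, with 6 false calls, so a change of that size can be missed. Without any change 0 genes were called.

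Alternatives were a pseudocount of 0.1, median-of-ratios factors, the removal of *Gm42418*, a mean of at least 1, no intensity trend, the replicate number as a block and each library left out. Ratios and their alternatives were chosen after seeing the data. Coordinates and sequences were taken from RefSeq tables of GRCm38.p6 and promoters were searched with Python 3.11.15. Of the symbols, 34696 were found as RefSeq symbols. The sequencing of hippocampal tissue in the study was not analysed here.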

Additional observations from a re-analysis of the deposited data

How the results depend on the processing

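As deposited, 1 of the 10 lncRNAs and 226 of all genes passed the threshold. With a pseudocount of 0.1, 1 and 627 did. With median-of-ratios factors 4 and 1721 passed, with *Gm42418* left out 4 and 1768, and with a mean of at least 1 (13604 genes tested) 2 and 1543. Without the intensity trend 0 and 201 passed. With the replicate block 0 and 0 passed in limma, with 4326 genes at an unadjusted p under 0.05. Leaving out 1 library gave from 0 to 4 lncRNAs and from 0 to 2711 genes. The highest counts were those without the third control library (*Meg3*, *Rian*, *Snhg11* and *Kcnq1ot1*), and the other 5 fits called 0 genes, with 3332 to 3853 at an unadjusted p under 0.05. The cause of these differences was not tested. The replicate numbers were not taken to pair the libraries, since deviations from the group means of libraries with the same number correlated across genes at 0.0143, 0.114 and 0.154. With the block the log2 fold change of *Kcnq1ot1* stayed 1.5 at a limma adjusted p of 0.115, and that of *Kcna1* 1.83 at 0.111.

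The sign of 2 lncRNAs near 0 turned. *Pantr1* was at 0.036 with median-of-ratios factors and from -0.13 to 0.011 with a library left out. *Peg13* was at -0.0028 with *Gm42418* left out and from -0.047 to 0.085 with a library left out. The other 8 lncRNAs and *Kcna1* kept their direction in all 12 alternatives. Over these 11 genes and 12 alternatives, 104 results kept both direction and side of the threshold, 13 lost the call, 10 gained it and 5 turned. The exact tests of ratios cannot pass 0.05 with 3 against 3, and 7 of the 8 kept their direction without a pseudocount, with a pseudocount of 0.1 and with each library left out. The log2 difference of *Pantr1* to *Pou3f3* ranged from -0.046 to 0.13 with a library left out, and was -0.028 without the third control library. The number of reads is unknown, and rounding limits low values such as those of *Neat1*.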
